A study of Mus musculus with 12 samples.

Results

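The transcripts described here are 33 genes of heart muscle cells, measured in whole lungs of newborn mice. They were chosen by name: natriuretic peptides, parts of the sarcomere, calcium-handling proteins, and transcription factors and a connexin of the atria. All 33 were found among the 23478 genes of the table, and 31 passed the filter on low counts, with Nppb and Nkx2-5 left out. The choice was made after earlier results of these data had shown that 2 of the 12 libraries, SAL/HYP_2 and ATG/HYP_2, were rich in Nppa. The excess in these libraries is therefore given as a description, with no test.

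RNA-seq was done on lungs of C57/Bl6 pups from which the lavage fluid had been removed. On day 0 each pup was given aurothioglucose (ATG), a gold compound, at 25 mg/kg into the peritoneal cavity, or saline (SAL). Exposure to oxygen above 95% (hyperoxia, HYP) lasted 72 h, and the other pups breathed room air (RA). The 4 groups of 3 libraries are saline in room air (SAL/RA), ATG in room air (ATG/RA), saline in hyperoxia (SAL/HYP) and ATG in hyperoxia (ATG/HYP), and the labels give all pups the same strain and no genotype. The labels name no animals, litters or dissection batches, so p-values measure the spread between these samples, which may be technical. In whole lung, more cardiomyocytes and more RNA per cardiomyocyte cannot be told apart.

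In mice, heart muscle does not stop at the left atrium: a sleeve of cardiomyocytes runs along the pulmonary veins into the lung, so that lung RNA normally holds sarcomere transcripts of atrial type. Atrial muscle is marked by Nppa, which encodes atrial natriuretic peptide, by the atrial light chains Myl4 and Myl7, and by sarcolipin. Ventricular muscle is marked by the light chains Myl2 and Myl3. Where in the lung the reads came from was not measured.

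The ratio of Nppa to Myh6 was higher in both rich libraries than in each of the other 10. That of Myl7 was lower in each of the 6 hyperoxia libraries than in each of the 6 of room air. The stretches of DNA just upstream of these 2 genes are shown for that reason. Both are 250 bases long, end at the base before the RefSeq start of the gene in GRCm38.p6 (the assembly named mm10), and are written 5′ to 3′ on the strand of the gene. Nppa lies on the + strand, chr4:148000472-148000721, and Myl7 on the - strand, chr11:5898783-5899032. Capitals mark matches, on either strand, to short motifs bound by cardiac regulators.
Nppa: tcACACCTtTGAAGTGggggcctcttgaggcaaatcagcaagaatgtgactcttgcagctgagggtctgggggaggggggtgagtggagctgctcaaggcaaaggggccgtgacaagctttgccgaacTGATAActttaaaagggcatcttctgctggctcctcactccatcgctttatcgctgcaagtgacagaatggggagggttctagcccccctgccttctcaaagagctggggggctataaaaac
Myl7: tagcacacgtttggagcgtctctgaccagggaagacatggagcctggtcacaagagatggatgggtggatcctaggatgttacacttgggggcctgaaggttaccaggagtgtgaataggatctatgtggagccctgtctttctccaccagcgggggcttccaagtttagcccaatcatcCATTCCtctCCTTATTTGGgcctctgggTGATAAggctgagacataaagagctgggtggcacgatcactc
In the Nppa stretch a T-box motif (AGGTGT, here on the other strand) began 248 bases before the start, an NK2 motif (TNAAGTG) 241 bases before it, and a GATA motif 122 bases before it. In the Myl7 stretch the motif CATTCC, bound by TEAD factors, began 70 bases before the start, a CArG box, bound by serum response factor, 61 bases before it, and a GATA motif 42 bases before it. None of these matches overlapped another.

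RefSeq windows of 300 bases (250 before the start and 50 after it) were held for 28 of the 33 genes, and Sln, Tbx5, Gata4, Atp2a2 and Tcap had no entry. These 28 genes had 34 windows. A CArG box was present in 17.6% of them (Actc1, Ldb3, Myl3, Myl7 and Myom1), against 1.63% of all 32851 windows in the table. GATA motifs (GATA with A or T before it and A or G after it) were present in 44.1%, against 29.76%, and CATTCC in 29.4%, against 14.66%. A MEF2 site was present in 8.82% (Casq2, Mybpc3 and Ttn), against 3.19%. AGGTGT was in 14.7% against 13.74%, and TNAAGTG in 8.82% against 11.54%. Both strands were searched, and a match of letters is not a bound site.

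The libraries held 14331749 to 20486735 counts. The 33 genes took 0.155% to 0.287% of the counts in 10 libraries, 0.821% in SAL/HYP_2 and 1.37% in ATG/HYP_2. Surfactant protein C (Sftpc), the marker of alveolar type 2 cells, stood at 5459 to 7792 CPM in all 12, so each library carried the RNA of lung. CPM is the usual count of a gene relative to the total of its library, here after scaling of the totals by the trimmed mean of M values (TMM).

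Cardiomyocyte transcripts were present in every lung and stood far higher in the 2 rich libraries. Of the 31 genes that passed the filter, 27 were higher in both SAL/HYP_2 and ATG/HYP_2 than in each of the other 10 libraries, where 4.6% of all 15761 tested genes were. The 4 that were not are Tbx5, Gja5, Myl2 and Myl3. Over the 31 genes the median ratio to the median of the 10 other libraries was 4.65 in SAL/HYP_2 and 8.51 in ATG/HYP_2, and over all tested genes it was 1 in both. A ratio of at least 4 in both libraries was reached by 22 of the 31, and every one of the 33 genes was higher in ATG/HYP_2 than in SAL/HYP_2. The rule named these libraries, so nothing is read from the size of these counts.

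**Figure D1:**
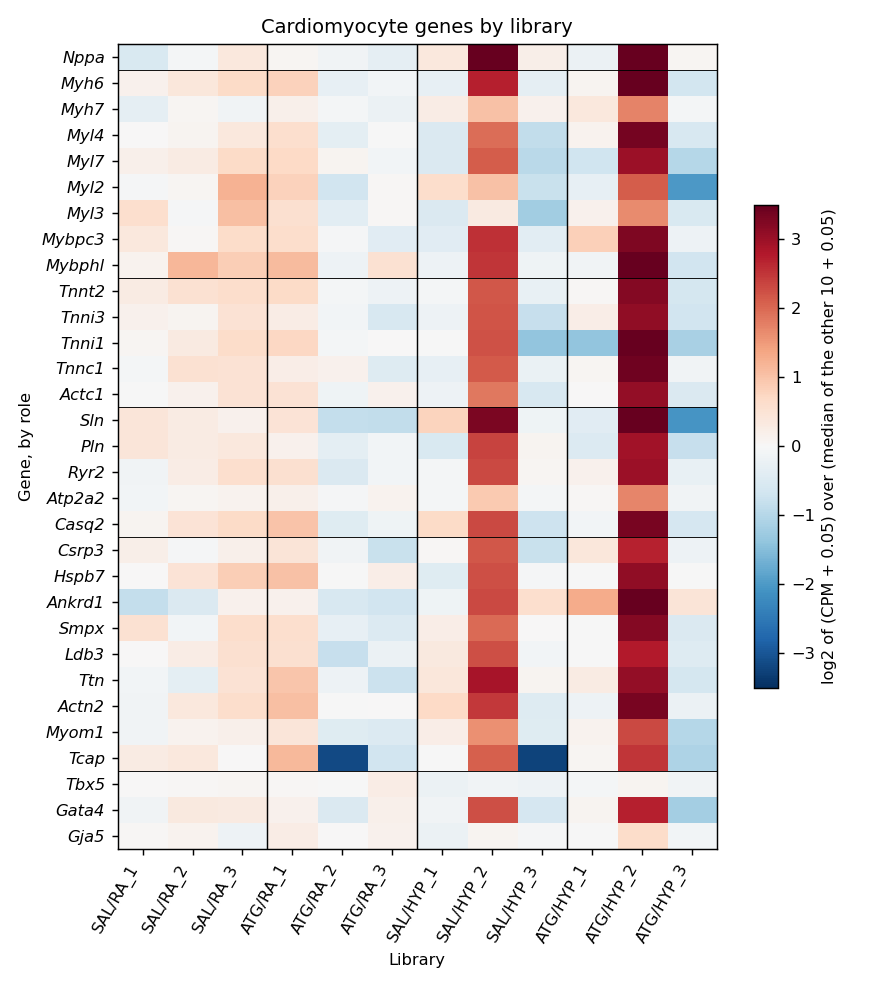
Level of the 31 cardiomyocyte genes (vertical axis, ordered by role) in each of the 12 libraries (horizontal axis), as log2 of CPM over the median of the 10 other libraries, with 0.05 CPM added to both and colours ending at 3.5 in each direction. The columns of SAL/HYP_2 and ATG/HYP_2 are red for nearly all genes, while the rows of Tbx5 and Gja5 stay pale.

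The natriuretic peptides are hormones that heart muscle releases when it is stretched. Nppa was barely present at baseline, at 1.85, 2.61 and 3.52 CPM in SAL/RA, 2.83, 2.49 and 2.16 in ATG/RA, 3.55 and 3.17 in SAL/HYP_1 and SAL/HYP_3, and 2.37 and 2.86 in ATG/HYP_1 and ATG/HYP_3. It stood at 269.8 CPM in SAL/HYP_2 and 1108 CPM in ATG/HYP_2. The 10 low libraries spanned a 1.92-fold range that covered all 4 groups, and the 2 high ones were 99.3 and 408 times their median. The gene lies at chr4:148000722-148002079 (mm10, + strand). A predicted gene model on the opposite strand overlaps 61.5% of its exons, and reads of the pair cannot be told apart if the counting ignored strand.

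Nppb, which encodes brain natriuretic peptide and lies nearby at chr4:147985788-147987205, had 3 counts over the 10 libraries together and none in 7 of them, where a count of 0 allows up to 0.148 to 0.205 CPM. It had 12 counts in SAL/HYP_2 and 158 in ATG/HYP_2. The rate was 39.4 times that of the 10 libraries in SAL/HYP_2 (95% interval 10.6 to 218) and 495 times in ATG/HYP_2 (166 to 2430). These exact binomial intervals cover counting error only. Like those given below for other genes, they set libraries named for their Nppa against the rest, so they are a description and test nothing. Both natriuretic peptides thus stood high in the same 2 libraries.

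**Figure D2:**
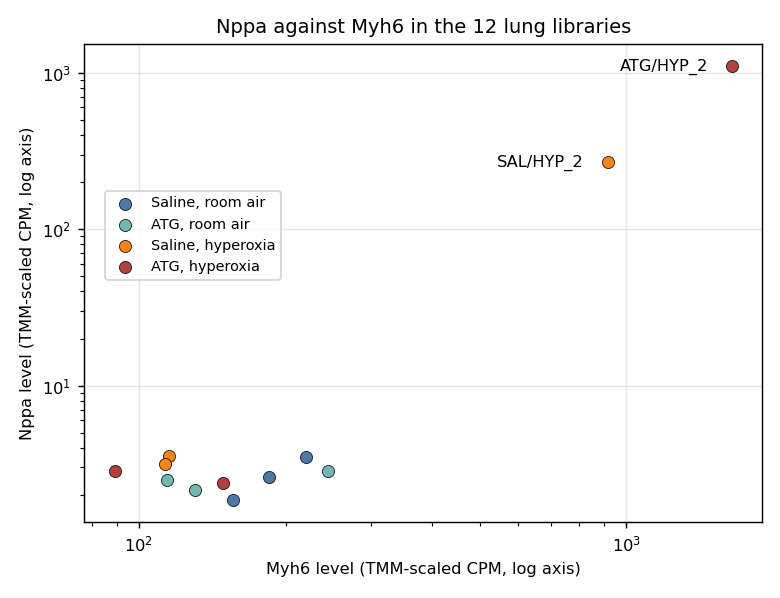
Nppa level (vertical, CPM, log axis) against Myh6 level (horizontal, CPM, log axis), 1 point per library, coloured by group. The 10 other libraries lie between 1.85 and 3.55 CPM of Nppa while their Myh6 runs from 89.3 to 243.9 CPM, and SAL/HYP_2 and ATG/HYP_2 lie apart at the upper right.

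Among the thick-filament genes, Myh6 encodes alpha myosin heavy chain, the main myosin of the mouse atrium. It was measured at 156, 185 and 221 CPM in SAL/RA, 244, 114 and 130.1 in ATG/RA, 115, 919 and 113 in SAL/HYP, and 149, 1645 and 89.3 in ATG/HYP. The groups overlapped outside the 2 rich libraries, which stood 6.58 and 11.8 times above the median of the others. Myh7, the beta heavy chain of slow and fetal muscle, ran from 35.5 to 57.3 CPM in the 10 libraries and reached 89.7 and 148 CPM, ratios of 2.03 and 3.36. Myh6 and Myh7 lie side by side on chromosome 14 and share 15.55% and 15.25% of their 75-base stretches, so part of their reads could have been exchanged or dropped in counting.

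The atrial light chains were abundant in every lung. Myl7, the atrial regulatory light chain, was measured at 78.1, 84.4 and 109 CPM in SAL/RA, 113, 73.7 and 64.3 in ATG/RA, 48.5, 300 and 35.6 in SAL/HYP, and 42.6, 554 and 34.6 in ATG/HYP. Outside the rich libraries, all 4 hyperoxia libraries lay below all 6 of room air. Myl4, the atrial essential light chain, ran from 14.2 to 38.5 CPM in the 10 libraries and reached 100.3 CPM in SAL/HYP_2 and 259.9 CPM in ATG/HYP_2.

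The ventricular light chains were scarce. Myl2, the ventricular regulatory light chain, had 64 counts over the 10 libraries, 13 in SAL/HYP_2 and 30 in ATG/HYP_2. Its level was 0.764 CPM in SAL/HYP_2, inside the range of the others (0.0493 to 0.879), and 1.68 CPM in ATG/HYP_2. Myl3, the ventricular essential light chain that slow skeletal muscle also uses, ran from 1.64 to 8.04 CPM and was at 4.82 and 12.2 CPM. Per kilobase of the longest coding transcript, the median of the 10 libraries was 117 CPM for Myl7 against 0.395 for Myl2, and in ATG/HYP_2 it was 939 against 1.89. The atrial form thus dominated at baseline and in the rich libraries alike. Of the thick-filament binding proteins, Mybpc3 ran from 4.67 to 11.1 CPM and reached 37.2 and 60.5 CPM, and its atrial relative Mybphl from 2.31 to 8.38 CPM, reaching 21.3 and 42.9 CPM.

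The thin-filament genes were also higher in the rich libraries. Actc1, cardiac alpha actin, had the highest level per kilobase of the 33 genes at baseline (a median of 187 CPM), and ran from 188 to 393 CPM per gene before reaching 985 and 2307 CPM. Tnnt2, cardiac troponin T, ran from 47.6 to 116 CPM and reached 325 and 678 CPM. Tnnc1, troponin C of heart and slow muscle, ran from 6.05 to 11.98 CPM and reached 36.9 and 88.5 CPM.

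Troponin I occurs in the heart in an adult form, Tnni3, and in Tnni1, the form of slow skeletal muscle and of the heart before and shortly after birth. Tnni3 ran from 9.74 to 24.2 CPM in the 10 libraries and reached 79.4 and 146 CPM. Tnni1 was measured at 6.57, 7.82 and 9.80 CPM in SAL/RA, 10.4, 6.05 and 6.41 in ATG/RA, 6.17, 29.9 and 2.37 in SAL/HYP, and 2.37, 74.1 and 2.86 in ATG/HYP. Of the 4 other hyperoxia libraries, 3 were below all of room air, and SAL/HYP_1 was not.

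Calcium handling was represented by the pump Atp2a2, its inhibitors Pln (phospholamban) and Sln (sarcolipin), the release channel Ryr2 and the calcium store protein Casq2. Sln, which is atrial in the mouse heart, ran from 0.936 to 7.10 CPM in the 10 libraries and stood at 40.4 and 73.6 CPM, ratios of 9.89 and 18.0 that were exceeded only by those of Nppa among the genes that passed the filter. Pln, which is enriched in ventricular muscle, ran from 4.88 to 11.6 CPM and stood at 44.6 and 66.3 CPM. Cep85l and another gene on the opposite strand overlap 64.7% of the exons of Pln. Cep85l itself was at 37.1 and 38.3 CPM in the rich libraries, against 37.5 to 48.4 CPM in the others.

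Ryr2 ran from 24.5 to 51.8 CPM and reached 171 and 273 CPM, and Casq2 from 6.21 to 20.9 CPM, reaching 51.1 and 103 CPM. Atp2a2, which most cell types express, was high and even in the 10 libraries (368 to 453 CPM) and reached 759.9 and 1300 CPM, only 1.90 and 3.25 times their median. Its increase over that median was 359 CPM in SAL/HYP_2 and 899.7 CPM in ATG/HYP_2.

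The Z disc, titin and M band genes followed the same course. Titin (Ttn), the spring that spans the sarcomere from Z disc to M band, ran from 246 to 812 CPM and stood at 3037 and 3526 CPM. Its increase in ATG/HYP_2 was only 1.19 times that in SAL/HYP_2, while for Myh6 it was 1.93 times, for Myl4 3.13 times and for Nppa 4.14 times. Actn2 (alpha-actinin, which anchors actin at the Z disc) reached 74.0 and 132 CPM, Ldb3 94.5 and 138, Csrp3 33.8 and 47.8, Hspb7 102 and 184, Smpx 9.87 and 23.0, Myom1 of the M band 73.6 and 120.1, and Tcap 4.41 and 5.89. Ankrd1, a titin-linked protein induced in strained heart muscle, was measured at 9.99, 12.5 and 19.7 CPM in SAL/RA, 19.9, 12.04 and 11.2 in ATG/RA, 15.9, 88.4 and 26.6 in SAL/HYP, and 44.1, 223 and 24.4 in ATG/HYP. For Ankrd1, 3 of the 4 other hyperoxia libraries were above all of room air, and SAL/HYP_1 was not.

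The transcription factors and connexin 40 split. Gata4, a factor of early and mature heart muscle, ran from 2.76 to 8.13 CPM and reached 30.6 and 42.3 CPM. Nkx2-5, the homeobox factor that marks cardiac muscle, had 14 counts over the 10 libraries, 6 in SAL/HYP_2 and 38 in ATG/HYP_2, which is 4.22 (95% interval 1.33 to 11.7) and 25.5 (13.5 to 51) times their rate. Tbx5, which lung mesenchyme also expresses, was at 165 to 228 CPM in the 10 libraries and at 175 and 202 CPM in the rich ones. Gja5 (connexin 40), which arterial endothelium also expresses, was at 150 to 204 CPM and at 185 and 269.7 CPM. Tbx5 thus stayed inside the range of the others in both rich libraries, while Gja5 stayed inside it in SAL/HYP_2 and was above it in ATG/HYP_2. Gja5 shares 19.76% of its 75-base stretches with Zfp697, so part of its reads could have been exchanged or dropped in counting.

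**Figure D3:**
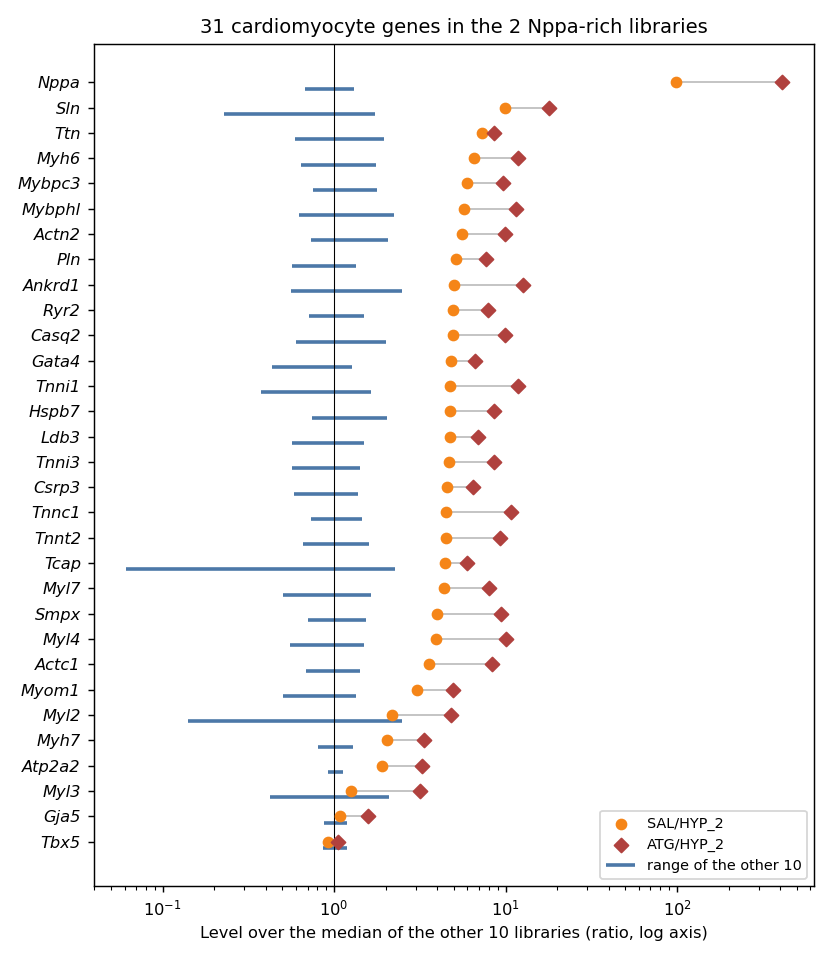
Ratio of each gene's level in SAL/HYP_2 (circles) and ATG/HYP_2 (diamonds) to the median of the 10 other libraries (horizontal, log axis), with 1 line per gene and blue bars for the range of the 10. Nppa stands at 99.3 and 408, and 22 of the 31 genes are at 4 or more in both. Tbx5 is near 1 (0.917 and 1.06), and Gja5 is at 1.08 and 1.57.

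Ratios to Myh6 within each library do not depend on the scaling of libraries. Over the 10 other libraries, 22 of 30 genes varied less as a ratio to Myh6 than as a level. The coefficient of variation of Tnnt2 went from 28.9% as a level to 8.5% as a ratio, that of Myl4 from 30.5% to 13.3%, and that of Actc1 from 24.9% to 13.7%. Tbx5, Gja5, Atp2a2, Myh7, Nppa and Ankrd1 were among the genes that varied more as a ratio, and for Atp2a2 it went from 7.45% to 25.7%. The highest of the 10 libraries was ATG/RA_1 for 16 of the 31 genes, and the lowest was ATG/HYP_3 for 11 and SAL/HYP_3 for 7.

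In the rich libraries 14 of the 30 genes had a ratio to Myh6 inside the range of the 10 in both, and 11 were outside it in both. Nppa was at 0.0116 to 0.0320 of Myh6 in the 10 libraries, 0.294 in SAL/HYP_2 and 0.673 in ATG/HYP_2, and was the only one of the 30 genes above all 10 in both. Another 5, Myl4, Csrp3, Smpx, Ldb3 and Gata4, were below the range in 1 of the rich libraries. The ratio was below all 10 in both for 10 genes, Myh7, Tnnt2, Actc1, Myl3, Ryr2, Atp2a2, Hspb7, Myom1, Tbx5 and Gja5. Tnnt2, for example, was at 0.476 to 0.614 of Myh6 in the 10 libraries and at 0.354 and 0.412 in the rich ones. Myh6 itself was at 6.58 and 11.8 times its median of the 10 in SAL/HYP_2 and ATG/HYP_2. Of the genes that passed the filter, only 3 in each of these libraries had a larger such increase. A gene that rose less than Myh6 has a lower ratio to it. Nothing is therefore read from the number of genes above or below the range. The ratio of Tbx5 fell below it while its level, at 0.917 and 1.06 times its median, stayed inside that of the 10. Sln counts as inside the range through SAL/HYP_1 alone, where it was at 0.0616 of Myh6. It was at 0.0440 in SAL/HYP_2 and 0.0448 in ATG/HYP_2, and the highest of the remaining libraries was SAL/RA_1 at 0.0355. SAL/HYP_1 also had the highest sum of skeletal muscle genes (441 CPM), and whether this bears on its Sln was not tested.

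**Figure D4:**
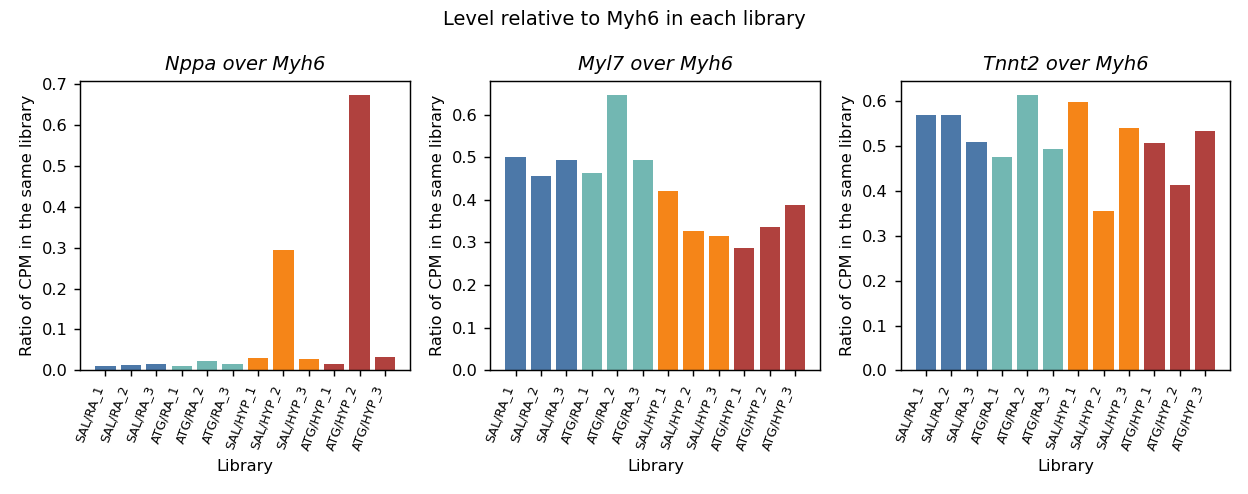
Ratio of the CPM of Nppa, Myl7 and Tnnt2 to that of Myh6 in the same library (vertical), 1 bar per library coloured by group. Nppa reaches 0.294 and 0.673 in SAL/HYP_2 and ATG/HYP_2, and Myl7 is lower in the 6 hyperoxia bars (0.286 to 0.420) than in the 6 of room air (0.457 to 0.646).

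Whether the gold compound altered these genes was tested with edgeR's quasi-likelihood test over all tested genes, with Benjamini-Hochberg adjustment. In room air none of the 31 genes was called, and 0% of all tested genes were (949 genes, none of the 31 among them, had an unadjusted p under 0.05; DESeq2 and limma-voom called none of the 31 either). The median log2 fold change of ATG against SAL was -0.18 over the 31 genes, with 24 below 0, and 0.01 over all genes. The smallest p belonged to Myl3, at a log2 fold change of -0.49 (SE 0.51, adjusted p = 0.94), then Gja5 at 0.14 (SE 0.16, adjusted p = 0.956) and Tbx5 at 0.06 (SE 0.08, adjusted p = 0.965). Pln was the 1 gene whose libraries did not overlap, at 11.6, 10.6 and 11.1 CPM after saline and 9.54, 6.86 and 8.09 CPM after ATG, where 12% of all tested genes did not overlap.

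In hyperoxia, ATG against SAL again called none of the 31 genes (0.00634% of all tested genes were called higher and 0% lower). None of the 31 had an unadjusted p under 0.05 in edgeR, where 5.69% of all genes did. Neither DESeq2 nor limma-voom called any of the 31. All 31 log2 fold changes were above 0, with a median of 0.69 against 0.00 over all genes, and this rested on the rich libraries. Without SAL/HYP_2 and ATG/HYP_2, 14 were above 0 and 17 below, the median was -0.04, and again edgeR called none. In that fit 2 of the 31 had an unadjusted p under 0.05, where 4.98% of all genes did. With all libraries the smallest p belonged to Myl3, at 1.06 (SE 0.52, adjusted p = 0.852), then Ankrd1 at 1.16 (SE 0.68, adjusted p = 0.912) and Tbx5 at 0.14 (SE 0.08, adjusted p = 0.918). No gene of the 31 was called for the interaction of ATG and hyperoxia by edgeR, DESeq2 or limma-voom (0% of all genes in either direction by edgeR). None of the 31 had an unadjusted p under 0.05 for it in edgeR, where 2.95% of all genes did. With 1 library in each arm far above the rest, the spread was wide: the SE for Nppa was 1.62 around a log2 fold change of 2.01.

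Hyperoxia against room air is described without weight on its p-values. The rule named 1 hyperoxia library after SAL and 1 after ATG, and no library of room air. With all 12 libraries, none of the 31 genes was called after SAL by edgeR, DESeq2 or limma-voom. By edgeR 4.7% of all genes were called higher and 4.5% lower. At an unadjusted p under 0.05 in edgeR there were 3 of the 31 after SAL, where 22.7% of all genes were. After ATG there were 11 of the 31, where 25.1% of all genes were. After ATG, Ankrd1 alone was called higher, at a log2 fold change of 2.76 (SE 0.73, adjusted p = 0.0242), where 5.41% of all genes were called higher and 6.25% lower. The call for Ankrd1 was lost with limma-voom, which called none of the 31 genes, and when any single ATG/RA library, or ATG/HYP_2, was left out. Nppa had a log2 fold change of 5.10 (SE 2.13, adjusted p = 0.166) after SAL and 7.22 (SE 2.24, adjusted p = 0.0502) after ATG.

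Without SAL/HYP_2 and ATG/HYP_2 the direction was the opposite for most of these genes. The log2 fold change was below 0 for 26 of 31 after SAL (median -0.47) and for 26 of 31 after ATG (median -0.29), and medians over all genes were 0.00. The libraries left out were those with the highest values, which by itself lowers what remains. After SAL, Myl7 was called lower at -1.09 (SE 0.21, adjusted p = 0.00356) and Myl3 at -1.41 (SE 0.41, adjusted p = 0.0425), where 4.98% of all genes were called higher and 4.68% lower. After ATG, Myl7 was called lower at -1.10 (SE 0.21, adjusted p = 0.00385) and Tnni1 at -1.52 (SE 0.38, adjusted p = 0.0193), and Ankrd1 higher at 1.27 (SE 0.31, adjusted p = 0.018), where 4.46% were called higher and 4.63% lower. The shares of the 31 genes called are near those of all genes. At an unadjusted p under 0.05 there were 15 of the 31 after SAL, where 23.2% of all genes were, and 6 of the 31 after ATG, where 21.7% were.

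In this fit of 10 libraries each hyperoxia arm has 2 libraries, so leaving out 1 of them leaves a lone library, which is assumed to vary like the other groups. Such a fit can lose a call while the difference stays about as large. Myl7 was at -0.90 without SAL/HYP_3 (adjusted p = 0.0576) and at -0.97 without ATG/HYP_3 (adjusted p = 0.0703), both with a lone library. Myl3 after SAL lost its call without SAL/RA_1 (-1.41) or SAL/RA_3 (-1.12), and with a lone library without SAL/HYP_1 (-1.82) or SAL/HYP_3 (-1.11). Tnni1 after ATG lost it without ATG/RA_1 (-1.23), and with a lone library without ATG/HYP_1 (-1.41) or ATG/HYP_3 (-1.68). Ankrd1 after ATG lost it without ATG/RA_3 (1.11), and with a lone library without ATG/HYP_1 (0.76). Myl3 was also lost with limma-voom (adjusted p = 0.0785) and Ankrd1 with DESeq2 (adjusted p = 0.0553). In all 4 other hyperoxia libraries Myl7 (34.6 to 48.5 CPM), Hspb7 (16.0 to 21.2 CPM) and Tbx5 (165 to 183 CPM) lay below all 6 room-air libraries (64.3 to 113, 21.4 to 43.6 and 191 to 228 CPM). That is 3 of 31 genes, where 7.87% of all tested genes did so, and no gene of the 31 lay above, where 7.57% did.

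The lower Myl7 in hyperoxia was also seen relative to Myh6, with the rich libraries included. Its ratio to Myh6 was 0.509 ± 0.0697 (SD, n = 6) in room air and 0.345 ± 0.0496 (SD, n = 6) in hyperoxia, and each of the 6 hyperoxia libraries lay below each of the 6 of room air. No other of the 30 genes did this, and 0.717% of all tested genes did. That share depends on Myh6, whose median was 170 CPM in room air and 114 CPM in the 4 other hyperoxia libraries. A gene with a steady level has a higher ratio where Myh6 is lower, so nothing is read from the small share. Those 4 libraries are also the ones with the lower Myl7 level, so the ratio is not separate support. With the Myh6 level as a covariate in the fit over 12 libraries, Myl7 was at -0.44 after SAL (SE 0.14, adjusted p = 0.0503) and at -0.62 after ATG (SE 0.14, adjusted p = 0.00909). In that fit Ankrd1 was higher after SAL at 1.08 (SE 0.19, adjusted p = 0.00202) and after ATG at 1.54 (SE 0.19, adjusted p = 0.000132), where 5.12% of all genes were called higher after SAL and 5.35% after ATG. Myh7 was higher too, at 0.49 (adjusted p = 0.016) and 0.40 (adjusted p = 0.0456). After SAL, Nppa and Ttn were also past the threshold on the higher side, at 1.82 and 0.81, and Myl3 on the lower side, at -1.19. This fit holds the rich libraries, which were named for their Nppa, so its calls are a description and test nothing for Nppa or the genes that went with it. Genes called lower made up 5.05% of all genes after SAL and 6.48% after ATG. For ATG against SAL that fit called none of the 31 genes, in room air or in hyperoxia, where 0.00635% of all genes were called higher.

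**Figure D5:**
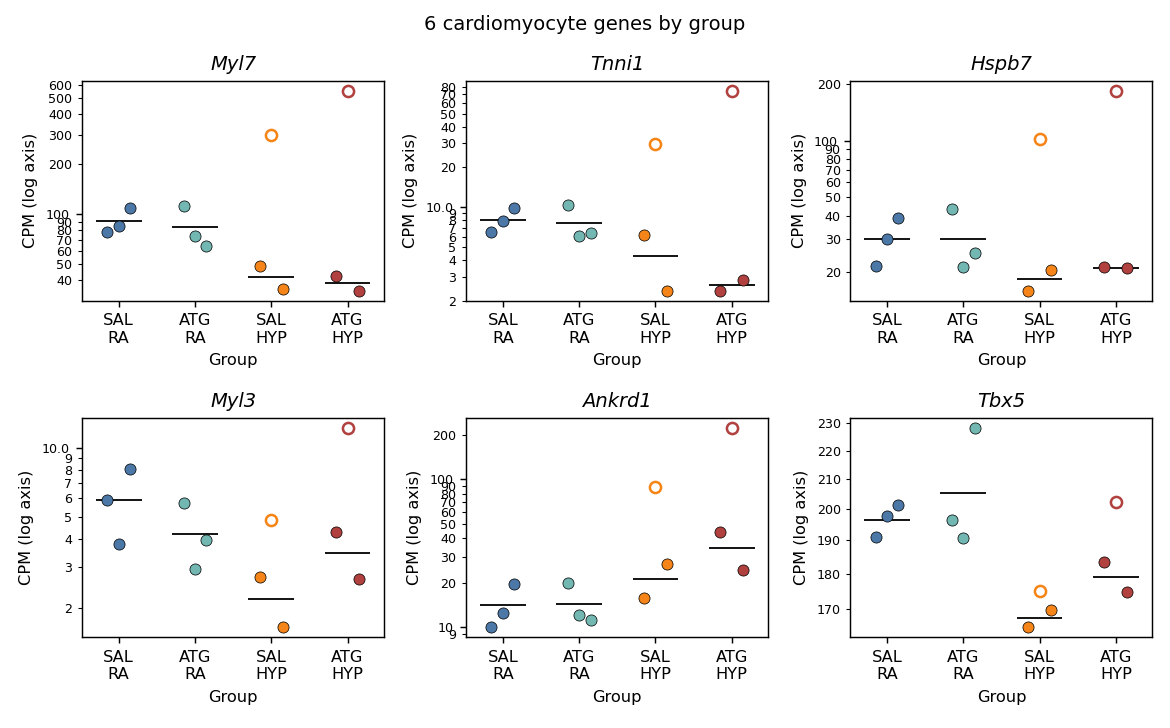
Level of 6 genes (vertical, CPM, log axis, not starting at 0) in the 4 groups, 1 point per library, with SAL/HYP_2 and ATG/HYP_2 as open circles and a line at the mean of the others. The filled hyperoxia points of Myl7, Hspb7 and Tbx5 lie below all room-air points, and those of Ankrd1 lie mostly above.

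Other genes of heart muscle, from a list of 35 outside the 33, showed the same 2 libraries. Of these 35, 24 were above all 10 others in both, and their summed level was 740 to 868 CPM in the 10 libraries, 1190 in SAL/HYP_2 and 1650 in ATG/HYP_2. Hand2, Mb (myoglobin), Corin (the protease that activates atrial natriuretic peptide) and Synpo2l led the list. Corin ran from 1.97 to 5.68 CPM and stood at 20.4 and 30.1 CPM. In the test of ATG against SAL none of the 35 was called, in room air or in hyperoxia. For hyperoxia after SAL, Nexn was called lower and no other, and after ATG Cox6a2, Jph2 and Nebl were called higher.

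Atrial, nodal and ventricular markers outside the 33 were unequal. Of 6 atrial genes, Bmp10, Kcnj3 and Kcnj5 were above all 10 in both. Bmp10, a secreted factor made by the atria, had 9 counts over the 10 libraries, 82 in SAL/HYP_2 and 379 in ATG/HYP_2, rates 89.8 (95% interval 45 to 203) and 396 (206 to 873) times theirs. Of 6 genes of the sinus node and conduction system, Hcn4, Shox2, Tbx18 and Cacna1g were above all 10. Tbx3 of the same list went the other way and was below all 10 in both, at 232.9 and 225.5 CPM against at least 271.1 CPM. The 6 genes summed to 280 and 266 CPM in the rich libraries, below the 287 to 355 CPM of the 10. Hcn4, the pacemaker channel, ran from 0.276 to 2.11 CPM and was at 13.9 and 11.8 CPM, so that unlike the 33 genes it was not higher in ATG/HYP_2. Of 4 ventricular genes only Lrrc10 was above all 10, at 2.00 and 2.86 CPM against at most 0.754. From the 33 genes, Myh7, Myl2 and Myl3 were on the ventricular list too. Myh7 was above all 10 in both, at 89.7 and 148 CPM against at most 57.3, while Myl2 and Myl3 were not. Hand1 had no count in any library, and Irx4 none in 11 of them.

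Over all tested genes with at least 5 CPM in both rich libraries, 84 reached at least 2 times the highest of the other 10 in both, 24 of them among the 33 genes. Predicted and clone-named genes were left out of the ranking that follows. The 12 other genes with the largest such ratio were Cacna2d2 (10.8), Alpk2 (8.59), Hcn4 (5.61), Kcnj3 (4.87), Adprhl1 (4.83), Alox8 (4.12), Kcng2 (4.01), Mb (3.94), Erbb4 (3.87), Xirp2 (3.67), Corin (3.59) and Kcnj5 (3.56). The ratio divides the lower of the 2 libraries by the highest of the 10, and it was 76.0 for Nppa and 3.77 for Myh6. Over all tested genes, 0.622% reached 2.

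Markers of other tissues were set beside these values, and their part in the result was not tested. Of 6 genes of mesothelium and epicardium, 4 were above all 10 in both rich libraries, with sums of 440 and 486 CPM against 216 to 362, and Wt1 was at 7.75 and 7.85 CPM against at most 3.47. Of 5 adipocyte genes, 3 were, with sums of 24.6 and 29.8 CPM against 2.31 to 9.67, Fabp4 leading at 18.1 and 14.9 CPM. None of 8 smooth muscle, 8 lung epithelial, 6 lung endothelial or 4 endocardial and valve genes was. The lung endothelial genes summed to 2150 and 2230 CPM in the rich libraries, below the 2330 to 2740 CPM of the 10, and Pecam1 (386 and 430 CPM, against at least 443) and Cdh5 (964 and 965 CPM, against at least 1022) were below all 10 in both. The smooth muscle myosin Myh11 was at 290 and 239 CPM, against 277 to 489.

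By their sums, skeletal muscle and thymus genes did not mark the same 2 libraries. None of 21 skeletal muscle genes was above all 10 in both, and their sum was 40.6 and 48.8 CPM in the rich libraries, 441 CPM in SAL/HYP_1 and 24.2 to 80.7 CPM in the other 9. With SAL/HYP_1 among the 10, that count says little. Against the other 9, Myl1 alone was above all in both, at 3.88 and 6.34 CPM against at most 1.21 CPM. Myh8, the perinatal myosin, was at 175 CPM and Acta1, skeletal actin, at 83.0 CPM in SAL/HYP_1, where Myh6 was at 115 CPM and Nppa at 3.55 CPM. The 9 thymocyte genes summed to 94.2 CPM in SAL/HYP_2 and 4.99 CPM in ATG/HYP_2, against 9.10 to 39.6 CPM in the 10 others. Rag1, which rearranges antigen receptor genes, was at 39.2 CPM in SAL/HYP_2 and 0.449 CPM in ATG/HYP_2.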

How the data were processed

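Per the labels' protocols, lung RNA was turned into amplified cDNA (NuGEN Ovation V2) and sequenced as paired 75-base reads. The authors deposited 1 table of raw counts, with a column for each of the 12 libraries and a row for each gene symbol. The submitters' processing notes list Bowtie2, Cufflinks, DESeq and mm10, with no versions. For the counter, strand setting and annotation the sources used here say nothing. Amplified reads are not independent molecules, so intervals and floors of 3 counts cover counting error only.

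Columns were matched to samples by name. Genes were kept by filterByExpr (minimum count 10, total 15), which left 15761 of 23478. The counts were fitted with edgeR 4.0.16 in R 4.3.3 (quasi-likelihood test, TMM, 4 group means, 8 residual degrees of freedom, two-sided, Benjamini-Hochberg threshold 0.05), and the fit was tested on simulated data. Standard errors come from the log2 fold change and its F statistic. Gene models are GENCODE M21, whose exons gave lengths, opposite-strand overlaps and shared 75-base stretches.

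Alternatives were DESeq2 1.42.0, limma-voom (limma 3.58.1), RLE size factors, no filter, a replicate block, only the groups compared, and leaving out libraries. The Myh6 covariate and the alternatives in the fit of 10 libraries were chosen after seeing the data. The genes, lists, tests and naming rule were chosen with earlier results of these data known. The rule names all 33 genes, from each list up to 4 with the largest ratio of the lower rich library to the highest of the 10, the 12 other genes with the largest ratio, and the 3 smallest p per ATG comparison. Predicted and clone-named genes were left out before those 12 were ranked. Replicates differed by more than sampling noise (chi-square per degree of freedom at least 6.83), so each counts as 1 sample.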

Additional observations from a re-analysis of the deposited data

How the results depend on the processing

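The counts of genes called for ATG, in room air, in hyperoxia and for the interaction, were 0 in every alternative run, and the counts of 27 genes above all 10 libraries and 22 genes steadier as a ratio to Myh6 were equal under RLE scaling, with library totals only and without SAL/HYP_1. For hyperoxia after SAL, genes called higher (0) became 1 with only the groups compared and 4 with the Myh6 covariate. Genes called lower (0) became 2 without SAL/HYP_2 and ATG/HYP_2, 2 without SAL/HYP_1 as well (which leaves SAL/HYP_3 alone in its arm, assumed to vary like the other groups), and 1 with the Myh6 covariate. After ATG, genes called higher (1) became 0 with limma-voom, 2 with RLE size factors, 3 with no filter and 2 with the Myh6 covariate, and ran from 0 to 5 when 1 library was left out. Genes called lower (0) became 2 without SAL/HYP_2 and ATG/HYP_2, 2 without SAL/HYP_1 as well, and 1 with the Myh6 covariate. The cause was not tested.

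The log2 fold change changed sign for Tbx5 (ATG in room air, -0.0265 without ATG/RA_3, range to 0.11 without single libraries), for Ankrd1 (ATG in hyperoxia, -0.338 without ATG/HYP_2, range to 2.19), and for Myl3 (hyperoxia after ATG, 10 libraries, 0.0274 without ATG/RA_1 and 0.0315 without ATG/HYP_3, range from -0.662). None of these was called. Replicate numbers are shared between groups, but 2 of 18 same-number correlations of deviations were over 0.1 (-0.156 to 0.28), which does not meet the bar for pairing by number. The highest, 0.28, is that of SAL/HYP_2 with ATG/HYP_2, and whether these share more than a number was not tested. With the replicate block, 0 genes were called after SAL and 1 higher after ATG, as without it. Depth limits Nppb, Nkx2-5 and Myl2, with 3, 14 and 64 counts over 10 libraries.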
